A study of Mus musculus with 6 samples.

Results

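The interferon regulatory factor (IRF) family was examined through 8 genes listed by symbol, *Irf1*, *Irf2*, *Irf3*, *Irf4*, *Irf5*, *Irf7*, *Irf8* and *Irf9*, out of 36137 genes in the files and 18506 that passed the count filter. All 8 passed it. BMDMs are macrophages grown out of bone marrow in culture. HSS, hypoxia with serum starvation, models ischemia in a dish, and DRP1, encoded by *Dnm1l*, is the GTPase that divides mitochondria. RNA was sequenced from BMDMs at culture day 7 after 8 hours of HSS, in 3 WT and 3 *Drp1* KO libraries. The KO cells were LysM-Cre+/- *Drp1* fl/fl and the WT cells LysM-Cre+/- *Drp1*+/+, so both genotypes carried Cre under the lysozyme M promoter, which is active in myeloid cells. There were no libraries from untreated cells, so the values below are differences between genotypes under HSS and not responses to HSS.

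IRF proteins are transcription factors that share a DNA-binding domain and recognise GAAA repeats in the promoters of interferons and interferon-stimulated genes. IRF3 and IRF7 are phosphorylated downstream of nucleic acid sensors and switch on type I interferon, whereas IRF9 is the DNA-binding subunit of the complex ISGF3, which carries the signal of the interferon receptor to the nucleus. IRF1 is an activator induced by interferon, IRF2 occupies similar sites and often opposes it, IRF5 acts below Toll-like receptors, IRF8 sets macrophage identity together with PU.1, and IRF4 is tied to alternative macrophage activation.

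The WT libraries held 24269850 to 28650715 estimated reads and the *Drp1* KO libraries 23389488 to 32231206. Levels are given as CPM, which scales counts to the normalized size of each library, and 3 counts, used as a floor that covers counting error only, correspond to 0.0917 to 0.136 CPM. Log2 fold changes are *Drp1* KO over WT, with adjusted p-values from edgeR's quasi-likelihood test over all 18506 genes. *Dnm1l* was at 72.7, 69.9 and 75.1 CPM in the WT libraries and at 58.7, 60.7 and 66.3 CPM in the libraries labelled *Drp1* KO, a log2 fold change of -0.23 (SE 0.092, adjusted p = 0.248, edgeR). The groups did not overlap, but the counts do not show which exons were read. At the protein level the paper reports deletion of DRP1 in BMDMs of the KO mice, by immunoblot against *Drp1* fl/fl controls. Macrophage markers summed to 13521 to 14919 CPM in WT and 12057 to 14465 CPM in KO libraries. The markers of plasmacytoid dendritic cells, which are rich in IRF7, summed to 101 to 119 and 105 to 136 CPM, nearly all of it from *Tcf4* (104 ± 9.98 CPM in WT and 114 ± 15.2 CPM in KO libraries, SD, n = 3 each), with *Ly6d* and *Klk1* at 0 counts throughout. All 4 of these markers that were tested had log2 fold changes above 0, beside 50.6% of all genes. None was called by edgeR, while DESeq2 called 1, beside 6.24% of all genes. *Cox6a2* was at 0.733, 0.675 and 0.477 CPM in WT and 2.09, 2.02 and 1.07 CPM in KO libraries, which did not overlap (log2 fold change 1.45, SE 0.367, adjusted p = 0.0654, edgeR). The part of these cells in the IRF results was not tested.

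Of the 8 IRF genes, 3 passed an adjusted p under 0.05 and were higher in the KO (*Irf7*, *Irf9* and *Irf1*), none was lower, and 5 did not pass. Over all genes tested, 3.36% were called, 2.29% higher and 1.06% lower. The median log2 fold change of the 8 genes was 0.23, beside 0.0046 for all genes tested, and 7 of the 8 values lay above 0, beside 50.6% of all genes. The WT and KO libraries did not overlap for 4 of the 8 genes, beside 21.9% of all genes. The study's own criteria were a log2 fold change beyond 0.32 in either direction with an unadjusted p under 0.05, from DESeq2. Applied here to edgeR's values, they gave 3 IRF genes as higher and *Irf2* as lower, against 7.19% and 5.48% of all genes. When same-numbered libraries were paired in the fit, 4 of the 8 genes passed an adjusted p under 0.05, the fourth being *Irf2*, while 12% of all genes were called and 6.73% were called higher. These are bulk libraries, in which fewer cells of a type and less RNA per cell cannot be told apart. The p-values measure the spread between these libraries, since bone marrow of pooled mice was used and no source read here states that each library came from a separate pool.

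**Figure D1:**
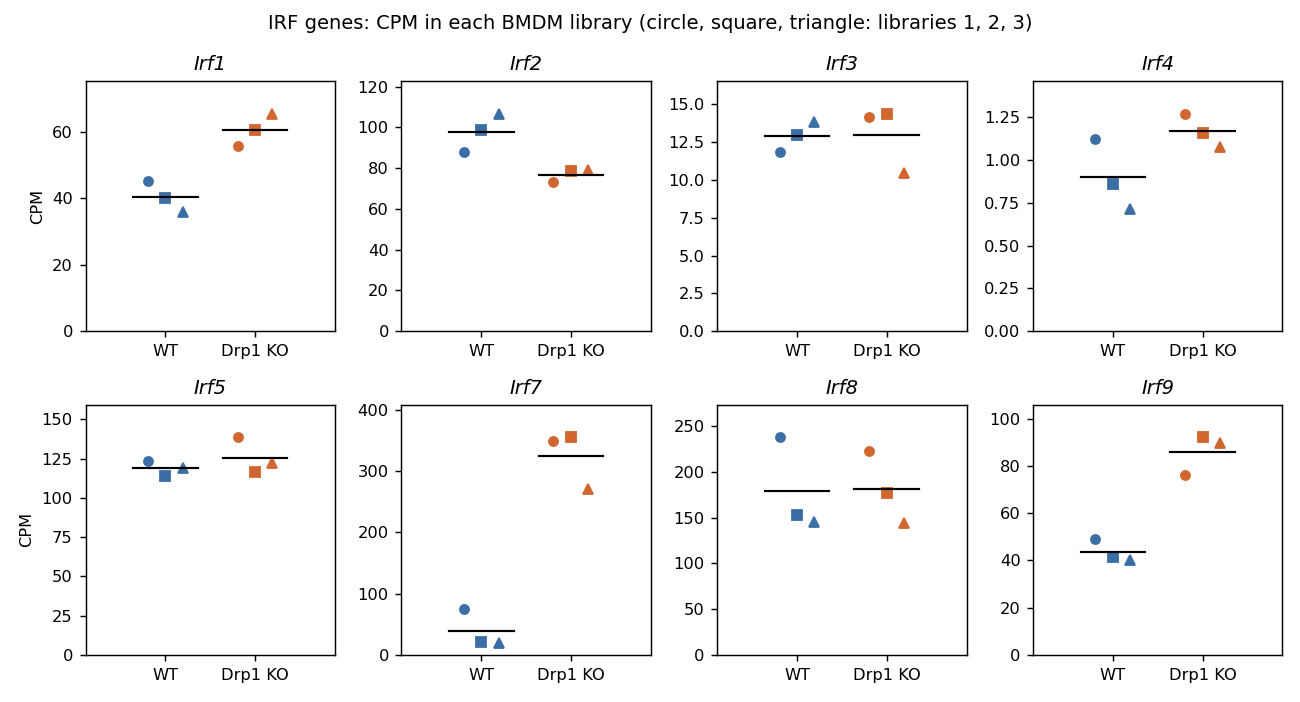
CPM of each IRF gene in each library, 1 panel per gene, with WT in blue, *Drp1* KO in orange and a bar at the mean of the 3 libraries; each vertical axis is linear and starts at 0. The KO points of *Irf1*, *Irf7* and *Irf9* all lie above the WT points, those of *Irf2* all lie below, and the groups overlap for *Irf3*, *Irf4*, *Irf5* and *Irf8*.

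*Irf7*, the factor that amplifies type I interferon production (chr7:140842619-140846398 of GRCm39, minus strand), had the largest change of the 8 genes. Its level was 74.6, 21.2 and 19.3 CPM in WT libraries 1 to 3 and 349, 355 and 271 CPM in KO libraries 1 to 3. Every KO library was far above every WT library, and WT library 1 stood well above the other WT libraries. The means were 38.4 ± 31.4 CPM for WT and 325 ± 47.1 CPM for KO (SD, n = 3 each), and the log2 fold change was 3.09 (SE 0.452, adjusted p = 0.00554, edgeR). Within replicate numbers 1, 2 and 3 the KO level was 4.68, 16.8 and 14.0 times the WT level. Without WT library 1 the log2 fold change was 4.0, and with any other library left out it was at least 2.74. Of the 424 genes called higher in *Drp1* KO BMDMs, 30 had a larger log2 fold change than *Irf7*.

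*Irf9*, the DNA-binding subunit of ISGF3 (chr14:55841028-55847812, plus strand), rose with little spread between libraries. Its level was 49.0, 41.6 and 40.1 CPM in WT and 76.3, 92.0 and 89.5 CPM in KO libraries. The groups were well apart and each had a narrow spread. The mean rose from 43.6 ± 4.78 to 85.9 ± 8.45 CPM (SD, n = 3 each), and the log2 fold change was 0.98 (SE 0.115, adjusted p = 0.00149, edgeR). Leaving out any 1 library kept it between 0.91 and 1.07, and the gene was called each time.

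*Irf1*, which drives antigen presentation and guanylate-binding protein genes (chr11:53660812-53669200, plus strand), was at 45.1, 40.1 and 35.8 CPM in WT and 55.7, 60.6 and 65.5 CPM in KO libraries. All KO libraries were above all WT libraries, with the libraries numbered 1 closest to each other. The log2 fold change was 0.59 (SE 0.113, adjusted p = 0.0214, edgeR). The call was lost without WT library 2 (adjusted p = 0.142), WT library 3 (0.125), KO library 2 (0.0859) or KO library 3 (0.0679), and with length-scaled counts (0.0781), while the log2 fold change with a library left out stayed between 0.50 and 0.67.

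*Irf2*, the factor that competes with IRF1 (chr8:47192222-47300501, plus strand), was the member whose levels pointed the other way. It was at 88.1, 98.8 and 107 CPM in WT and 73.0, 78.4 and 79.2 CPM in KO libraries, with every KO library below every WT library. The log2 fold change was -0.35 (SE 0.0995), and its adjusted p of 0.0968 missed the threshold in edgeR's test. It passed with DESeq2 (adjusted p = 0.0305), with same-numbered libraries paired in the fit (0.0121, edgeR), without WT library 1 (0.0444) and with length-scaled counts, where the log2 fold change was -0.81 (adjusted p = 0.00645).

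**Figure D2:**
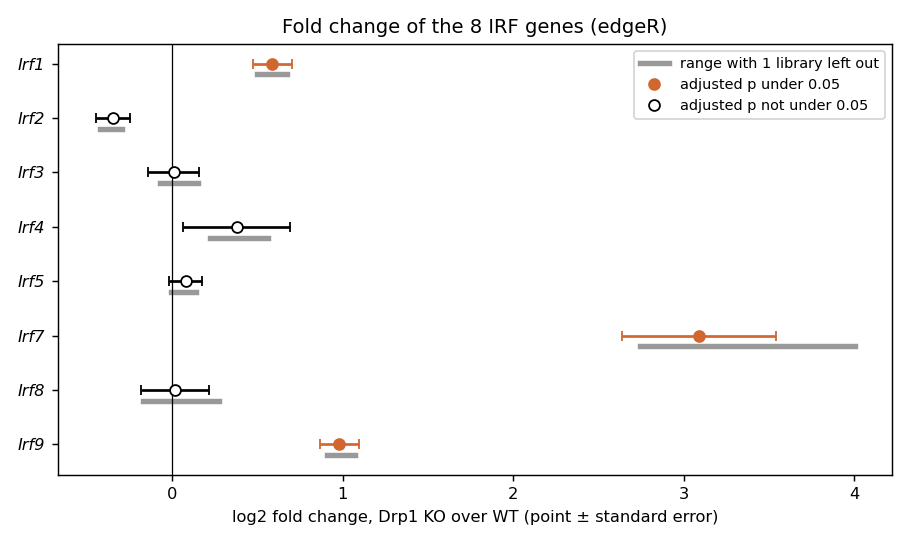
Log2 fold change of the 8 IRF genes, *Drp1* KO over WT, with the standard error as the horizontal bar, filled orange where the adjusted p was under 0.05, and a grey bar for the range with each library left out in turn. *Irf7* lies at 3.09 with a grey bar that reaches 4.0, *Irf9* at 0.98 and *Irf1* at 0.59, while *Irf3* and *Irf8* sit on 0.

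The other 4 members did not pass the test, and their libraries overlapped between genotypes. *Irf3*, the constitutive partner of IRF7 in inducing interferon, was at 11.9, 13 and 13.8 CPM in WT and 14.2, 14.4 and 10.5 CPM in KO libraries (log2 fold change 0.01, SE 0.151, adjusted p = 0.990, edgeR). KO library 3 was its lowest and KO library 2 its highest value. *Irf5* was at 124, 114 and 119 CPM in WT and 139, 116 and 122 CPM in KO libraries, with KO library 1 highest (log2 fold change 0.08, SE 0.097, adjusted p = 0.782, edgeR). *Irf8* was at 238, 153 and 146 CPM in WT and 222, 177 and 144 CPM in KO libraries (log2 fold change 0.02, SE 0.201, adjusted p = 0.988, edgeR). The libraries numbered 1 were the highest for *Irf8* in both genotypes. *Irf4* had the lowest level of the 8 genes, at 26, 23 and 21 counts in WT and 28, 38 and 35 counts in KO libraries, which corresponds to 0.9 ± 0.21 and 1.17 ± 0.099 CPM (SD, n = 3 each; log2 fold change 0.38, SE 0.314, adjusted p = 0.639, edgeR). The direction of *Irf3*, *Irf5* and *Irf8* was not stable, as each took the opposite sign under at least 1 other setting.

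The annotated spans of some of these genes overlap a neighbour, and the strand setting of the quantification is not given in the sources used here. *Irf3* overlaps *Bcl2l12* over 1104 bases and *Scaf1* over 22, both on the opposite strand, *Irf5* overlaps *Tnpo3* over 1047 and *Irf7* overlaps *Phrf1* over 63, likewise on the opposite strand. *Scaf1* averaged 2320 counts per library, *Bcl2l12* 52.8, *Tnpo3* 1700 and *Phrf1* 2290. *Irf9* overlaps *Rnf31* on the same strand over 282 bases, and *Irf1* and *Irf2* overlap noncoding genes of the opposite strand that were not analysed here. No overlap was found for *Irf4* or *Irf8*. The overlaps are of whole annotated spans, introns included, while reads were counted on cDNA. Reads that lie wholly in shared exon bases cannot be told apart by the gene sums, and their number was not tested.

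Levels of different genes were compared per length, as the TPM of a gene's transcripts added up. In WT BMDMs the mean order was *Irf2* (112 TPM), *Irf8* (83.6), *Irf5* (77.2), *Irf1* (60.0), *Irf9* (46.3), *Irf7* (32.8), *Irf3* (21.0) and *Irf4* (0.277). Between neighbours in that order, the libraries were apart for *Irf5* over *Irf1* and for *Irf3* over *Irf4*, and overlapped for the other pairs. In *Drp1* KO BMDMs the order was *Irf7* (227 TPM), *Irf9* (86.9), *Irf1* (81.0), *Irf8* (78.5), *Irf5* (73.6), *Irf2* (60.4), *Irf3* (15.7) and *Irf4* (0.341). *Irf7* was apart from *Irf9*, *Irf5* from *Irf2*, *Irf2* from *Irf3* and *Irf3* from *Irf4*. On this scale *Irf7* moved from the sixth place to the first and *Irf2* from the first to the sixth, whereas by CPM per kilobase of mean annotated transcript length *Irf7* moved from the fifth to the first and *Irf2* from the third to the fourth.

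*Irf7* made up 13.6%, 4.18% and 3.57% of the summed TPM of the 8 genes in WT libraries 1 to 3 and 38.4%, 37.5% and 33.2% in KO libraries. The TPM ratio of *Irf7* to *Irf3*, the partners in interferon induction, was 3.78, 0.766 and 0.621 in WT and 17.5, 13.5 and 12.9 in KO libraries. By TPM *Irf3* was the more abundant of the pair in WT libraries 2 and 3, but by CPM per kilobase of mean annotated transcript length the ratio was above 1 there too, at 4.69, 1.21 and 1.04 in WT and 18.4, 18.4 and 19.3 in KO libraries. The TPM ratio of *Irf1* to *Irf2* was 0.60, 0.627 and 0.410 in WT and 1.24, 1.2 and 1.60 in KO libraries. Both ratios were chosen after the values were seen and have no test. As CPM per kilobase, the *Irf1* to *Irf2* ratio stayed below 1 in KO libraries as well, at 0.803, 0.813 and 0.871, above 0.539, 0.427 and 0.353 in WT. On that scale *Irf8* and *Irf5* led in WT BMDMs and *Irf7* still led in *Drp1* KO BMDMs.

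**Figure D3:**
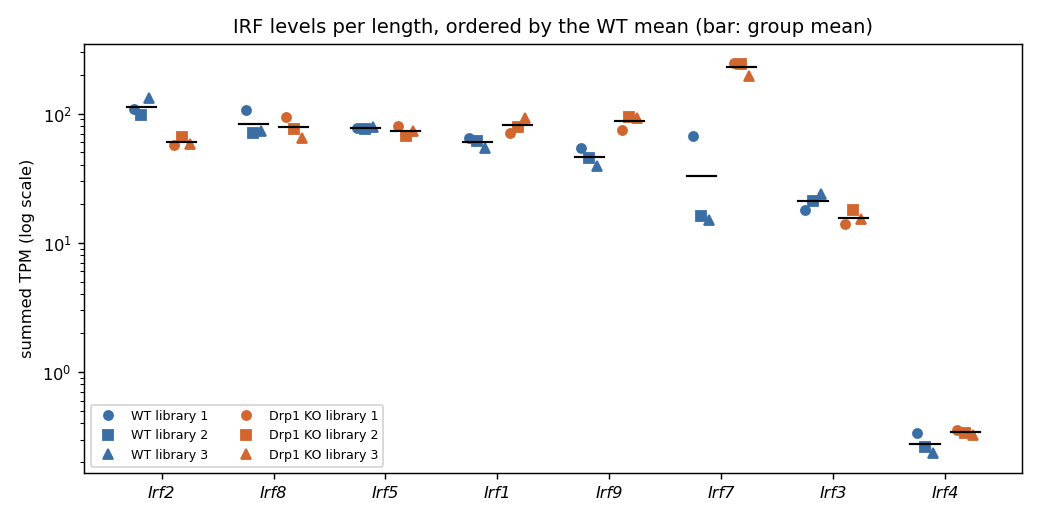
Summed TPM of each IRF gene in each library on a log scale, ordered by the WT mean, with WT in blue, *Drp1* KO in orange, a symbol for each library number and a bar at the group mean. *Irf7* climbs from a WT mean of 32.8 to a KO mean of 227 TPM, the highest of the family, and *Irf4* lies far below the rest in both genotypes.

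The gene sums were then opened to single transcripts, in a fit over all 62020 transcripts with enough counts that was added after the gene values were known. The deposited values are estimates that share reads among overlapping transcripts, and the error of that sharing is not in the test. Its size shows in *Irf4*, whose transcripts *Irf4-201* and *Irf4-202* differ by few bases in length (4764 and 4761 bases). *Irf4-202* was given 0 counts in KO library 2 and 35 in KO library 3, and *Irf4-201* was given 38 and 0. Of 69 IRF transcripts in the files 56 were tested, and 1 was called higher and none lower, beside 0.221% and 0.111% of all transcripts tested. DESeq2 called 10 IRF transcripts, beside 3.91% of all transcripts. With 1 library left out, 0 to 2 were called, where calls over all transcripts ran from 3 to 173.

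The called transcript was *Irf9-205*, which begins in its own first exon at chr14:55842036-55842178 of GRCm39, within the first intron of *Irf9-202*, whose first exon lies at chr14:55841442-55841700. *Irf9-205* was at 6.58, 9.15 and 8.32 CPM in WT and 29.3, 35.0 and 39.1 CPM in KO libraries (log2 fold change 2.10, SE 0.185, adjusted p = 0.0180, edgeR). *Irf9-202* was at 25.4, 15.5 and 20.2 CPM in WT and 23.1, 25.8 and 21.5 CPM in KO libraries, which overlapped (log2 fold change 0.21, SE 0.199, adjusted p = 0.855, edgeR). The downstream-start transcript took 13.2%, 22.3% and 20.8% of the gene's counts in WT libraries and 38.2%, 38.3% and 43.7% in KO libraries, while *Irf9-202* went from 51.0%, 37.6% and 50.6% to 30.2%, 28.3% and 24.0%. The adjusted p of *Irf9-205* was 0.0954 without WT library 2, 0.0791 without WT library 3, 0.0821 without KO library 2, 0.0870 without KO library 3 and 0.115 with same-numbered libraries paired, a fit that called 0 of all 62020 transcripts, with log2 fold changes of at least 2.00. The difference between the fold changes of these transcripts was not tested.

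For *Irf7*, the main transcript *Irf7-201* (1916 bases) was at 52.7, 16.6 and 15.7 CPM in WT and 244, 277 and 219 CPM in KO libraries. It had a log2 fold change of 3.13 (SE 0.492) and an adjusted p of 0.0665 (edgeR), which fell under the threshold in 5 of 13 alternatives, among them DESeq2 (1.16e-08, a fit that called 3.91% of all transcripts) and the fit without WT library 1 (0.0166). It held 69.4% to 81.4% of the gene's counts in WT and 69.6% to 80.8% in KO libraries, and these shares overlapped between genotypes. For *Irf2*, the full-length *Irf2-201* (2497 bases) was at 71.7, 80.4 and 82.2 CPM in WT and 64.5, 64.0 and 68.0 CPM in KO libraries (log2 fold change -0.25, SE 0.101, adjusted p = 0.449, edgeR). The short *Irf2-202* (720 bases) was at 7.41, 5.78 and 8.86 CPM in WT and 2.92, 2.91 and 2.43 CPM in KO libraries (-1.42, SE 0.249, adjusted p = 0.0870, edgeR). *Irf2-205* (383 bases) was at 4.39, 2.63 and 3.84 against 1.05, 1.33 and 0.399 CPM (-1.96, SE 0.490, adjusted p = 0.201, edgeR). In TPM, where counts are divided by length, such short transcripts weigh more, and the summed TPM of *Irf2* was 112 ± 17.8 for WT and 60.4 ± 4.86 for the KO (SD, n = 3 each). Over all transcripts that averaged 1 CPM or more, those under 1000 bases had a median log2 fold change of 0.031 and longer ones 0.0052.

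**Figure D4:**
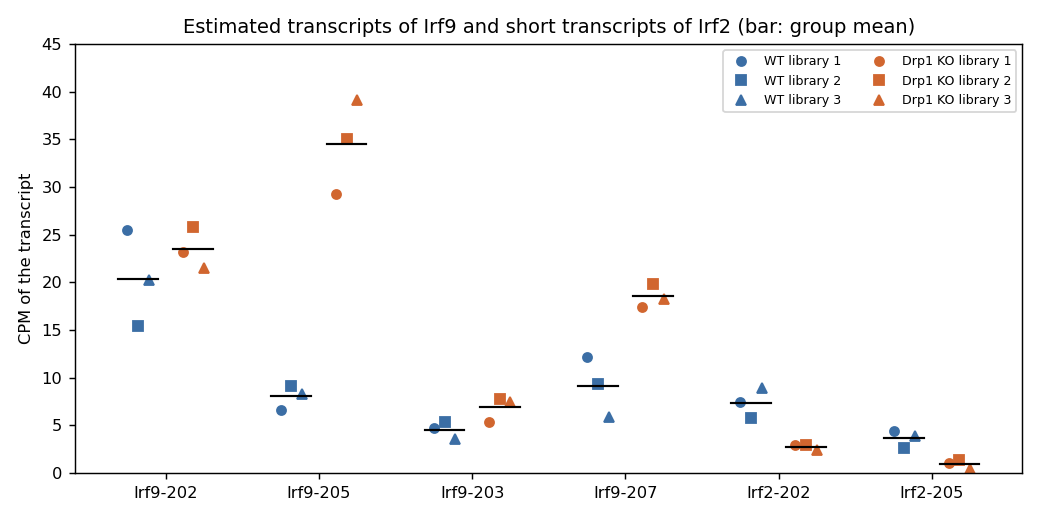
CPM of 4 *Irf9* and 2 short *Irf2* transcripts in each library, WT in blue and *Drp1* KO in orange, with a symbol for each library number and a bar at the group mean, on a linear axis from 0. *Irf9-205* lies at 6.58 to 9.15 CPM in WT and 29.3 to 39.1 CPM in KO libraries, whereas *Irf9-202* overlaps between genotypes.

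Promoter sequence was read from GRCm39 for the members that were higher in *Drp1* KO BMDMs and for those that hold a motif, to show what the jointly moving genes have near their starts. Windows ran from 250 bases before to 50 bases after the start of each gene's most abundant transcript, and both strands were searched for the core of the interferon-stimulated response element, GAAA followed after 2 bases of any kind by GAAA, which IRF proteins bind, and the gamma-activated site, TTCNNNGAA, known from the response to interferon gamma. The motifs do not overlap each other in these windows. The gamma-activated site was found in 3 of 8 IRF windows (*Irf1*, *Irf2* and *Irf8*), beside 7.71% of the 18506 windows of genes tested. The response element core was found in 1 of 8 (*Irf2*), beside 3.93%. Neither was found in the windows of *Irf3*, *Irf4*, *Irf5*, *Irf7* and *Irf9*, the last for the starts of *Irf9-202* and *Irf9-205* alike, which says only that these letters are not in these windows. Of the 3 genes that rose, *Irf1* carries a match. *Irf2*, whose KO libraries lay below WT, carries both motifs, and *Irf8*, whose groups overlapped, carries the gamma-activated site. The stretches below avoid all annotated IRF exons, are written from 5′ to 3′ along the gene, and have motif matches in capitals.
Irf1, chr11:53660692-53660811, plus strand, ahead of Irf1-208, gamma-activated site in capitals: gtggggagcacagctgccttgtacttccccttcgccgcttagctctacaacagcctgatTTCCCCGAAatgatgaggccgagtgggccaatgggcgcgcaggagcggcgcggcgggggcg
Irf7, chr7:140846399-140846518, minus strand, directly ahead of Irf7-201, no match: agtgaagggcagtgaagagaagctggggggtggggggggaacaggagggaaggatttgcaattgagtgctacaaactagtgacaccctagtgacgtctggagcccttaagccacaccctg
Irf9, chr14:55841805-55841924, plus strand, ahead of Irf9-205 and within the first intron of Irf9-202, no match: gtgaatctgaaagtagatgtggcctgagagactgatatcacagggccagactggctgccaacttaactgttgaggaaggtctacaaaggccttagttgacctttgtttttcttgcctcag
Irf2, chr8:47192510-47192629, plus strand, ahead of Irf2-201, response element core and then gamma-activated site in capitals: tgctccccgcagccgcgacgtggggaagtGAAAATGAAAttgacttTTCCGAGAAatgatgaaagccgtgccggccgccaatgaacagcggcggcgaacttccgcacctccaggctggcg
Irf8, chr8:121462879-121462998, plus strand, ahead of Irf8-201, gamma-activated sites in capitals: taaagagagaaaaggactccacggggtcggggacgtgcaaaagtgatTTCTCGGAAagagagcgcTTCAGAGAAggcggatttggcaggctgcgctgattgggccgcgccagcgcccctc

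The genes around the IRF family were read in 9 lists by role, 107 distinct genes in all. In the list of ISGF3 partners, interferon receptors and Janus kinases, 2 of 9 genes tested rose and none fell, with a median log2 fold change of -0.11. With pairing 3 were called, beside 12% of all genes. *Stat2*, which belongs to ISGF3 together with IRF9, was at 44.8, 48.4 and 43.0 CPM in WT and 86.0, 123 and 133 CPM in KO libraries (log2 fold change 1.33, SE 0.152, adjusted p = 0.00124, edgeR). Every KO library was above every WT library. *Ifnar1*, a chain of the type I interferon receptor, did not pass, with 172 ± 11.4 CPM in WT and 156 ± 8.47 CPM in KO BMDMs (SD, n = 3 each).

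Of 23 sensors, adaptors and kinases that activate IRF3, IRF5 and IRF7, 3 rose and none fell, with a median of 0.21. They were RNA sensors, namely *Rigi*, which rose from 57.1 ± 8.59 to 156 ± 27.3 CPM (log2 fold change 1.46), *Ifih1* from 49.3 ± 4.19 to 103 ± 12.2 CPM (1.06) and *Tlr3* from 8.06 ± 1.28 to 16.7 ± 4.48 CPM (1.05; SD, n = 3 each). The call of *Tlr3* was lost in 5 of the 14 other settings. Without WT library 1 the list had 6 calls, without KO library 1 it had 5, and with same-numbered libraries paired it had 9, in fits where calls over all genes rose as well, from 621 to 744, 904 and 2212. None of the 10 DNA-binding partners of IRF4 and IRF8 passed (median 0.046), by edgeR, DESeq2 or limma-voom, and 3 had an unadjusted p under 0.05 in edgeR, beside 16.4% of all genes. With pairing 3 were called, beside 12% of all genes, and without WT library 1 there was 1. The smallest p-values were those of *Ikzf1*, at 51.2 ± 7.72 and 64.7 ± 2.99 CPM, and *Batf2*, at 1.05 ± 0.413 and 1.97 ± 0.387 CPM (WT and KO, SD, n = 3 each). Among 13 corepressors and inhibitors 1 rose and none fell, with a median of -0.11. It was *Oasl1*, which restrains translation of *Irf7* mRNA, at 3.75, 1.72 and 1.26 CPM in WT and 30.2, 23.3 and 25.2 CPM in KO libraries (log2 fold change 3.57, SE 0.314, adjusted p = 0.000389, edgeR). With pairing 6 of these 13 were called, beside 12% of all genes. Without WT library 1 there were 2 and without KO library 1 there were 3, where all genes called rose from 621 to 744 and 904.

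Targets of IRF3, IRF7 and ISGF3 moved together. Of 15 listed, 13 were tested and 12 of those rose, none fell, and the median log2 fold change was 2.06. *Usp18*, which removes ISG15 and damps interferon signaling, was at 6.08, 6.78 and 3.92 CPM in WT and 40.0, 53.6 and 55.6 CPM in KO libraries (log2 fold change 3.16, SE 0.207, adjusted p = 0.000197, edgeR). The antiviral genes *Ifi44*, *Rsad2* and *Mx1* had log2 fold changes of 2.82, 2.06 and 1.78, with means of 21.9 ± 8.22, 86.4 ± 20.9 and 30.9 ± 5.88 CPM in WT, against 154 ± 38.6, 361 ± 77.7 and 106 ± 18 CPM in the KO (SD, n = 3 each). The gene that did not pass was *Cxcl10*, at 1.67 ± 1.06 and 3.33 ± 0.456 CPM (adjusted p = 0.265, edgeR). The interferon genes of the list were at the floor, with *Ifnb1* at 0 counts in WT and 5 counts in the KO, summed over 3 libraries, and *Ifna4* at 0 in both. WT library 1, the highest WT library for *Irf7*, was also the highest WT library for 4 of the 13 targets, WT library 2 was for 9 and WT library 3 for none. Between 10 and 13 targets were called over the 14 other settings.

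Of 16 targets of IRF1, 7 rose and none fell, with a median of 0.67. The GTPases *Igtp* and *Irgm1* rose from 11.3 ± 1.95 to 41.3 ± 5.16 CPM and from 42.3 ± 11.6 to 128 ± 23.9 CPM (log2 fold changes 1.87 and 1.60). The MHC class I light chain *B2m* rose from 2159 ± 239 to 3799 ± 307 CPM (0.82), and *Nlrc5*, the activator of MHC class I genes, from 28.0 ± 3.34 to 53.5 ± 8.71 CPM (0.94; SD, n = 3 each). The others called were *Casp1*, *Gbp2* and *Tap1*, named after their values were seen. The number called was 2 without WT library 2, 3 without WT library 3 and 4 without KO library 2. Calls over all genes fell there to 181, 217 and 268. With pairing 12 of the 16 were called, beside 12% of all genes.

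None of the 7 targets of IRF8 with PU.1 that were tested, of 8 listed, passed by edgeR, DESeq2 or limma-voom (median -0.038), 2 had an unadjusted p under 0.05 (16.4% of all genes) and 2 passed with pairing (12% of all genes). *Klf4*, a transcription factor of monocytes, was at 21.8 ± 6.05 and 33.6 ± 9.95 CPM (WT and KO, SD, n = 3 each). None of the 6 targets of IRF5 tested, of 8 listed, passed by these tools, and 0 had an unadjusted p under 0.05 (median 0.16, and 0.14 without *Il6*, which was at the floor in WT). *Il1b* was at 1.09 ± 0.309 and 1.51 ± 0.875 CPM and *Il23a* at 0.486 ± 0.319 and 0.341 ± 0.0987 CPM (WT and KO, SD, n = 3 each). Of 4 targets of IRF4 tested, of 6 listed, 1 rose and 1 fell (median 0.20). With pairing 3 of the 4 were called, beside 12% of all genes. *Pdcd1lg2*, the PD-1 ligand PD-L2, had 0.129, 0.562 and 0.409 CPM in WT and 1.09, 1.56 and 3.01 CPM in KO libraries (log2 fold change 2.34, SE 0.521, adjusted p = 0.0395, edgeR). *Mrc1*, the mannose receptor, averaged 1490 ± 65.7 CPM in WT and 1115 ± 34.3 CPM in KO BMDMs (SD, n = 3 each; -0.42, SE 0.0937, adjusted p = 0.0407, edgeR). Both calls were lost without WT library 1, 2 or 3 and without KO library 2 or 3.

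**Figure D5:**
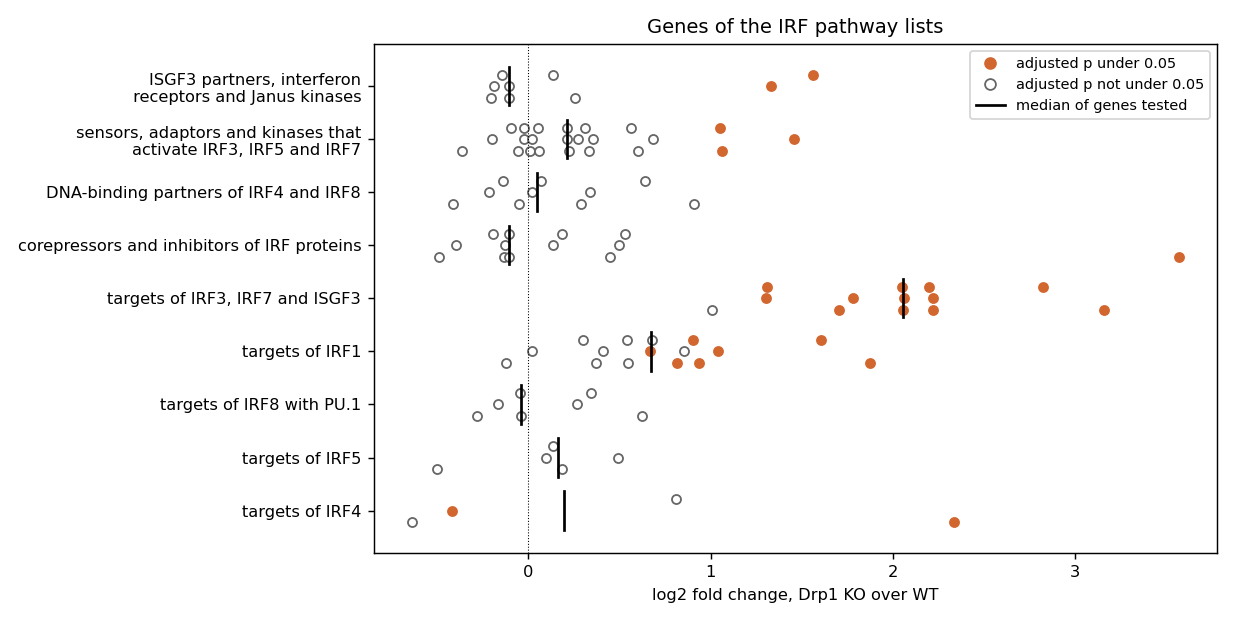
Log2 fold change, *Drp1* KO over WT, of each gene tested in the 9 lists around the IRF family, filled orange where the adjusted p was under 0.05, with a bar at the list's median over the genes tested; *Il6*, at the floor in WT, has no point. The targets of IRF3, IRF7 and ISGF3 center on 2.06 and those of IRF1 on 0.67, while the medians of the other lists lie between -0.11 and 0.21.

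The genes outside the family with the most similar course over the 6 libraries were found by the root mean square difference of log2 CPM, each gene set to its own mean, among 12240 genes that averaged 1 CPM or more. For *Irf7* they were *Oasl1* (difference 0.295), *Fcrl5* (0.338) and *Ifi206* (0.357). For *Irf9* they were *Ifih1* (0.0564), *Sp100* (0.0666) and *Sp110* (0.0718). For *Irf1* they were *Sgcb* (0.0304), *Uba7* (0.0448) and *Samsn1* (0.0487). The difference is not scaled to the size of a gene's change, so these values are not comparable between *Irf1*, *Irf7* and *Irf9*.

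Markers of other cell types were read beside these results. Neutrophil markers summed to 6.81 to 21.1 CPM in WT and 20.5 to 48.3 CPM in KO libraries, with *Ly6g* at 0 counts. Their median log2 fold change was 1.31, with 6 of 6 tested markers above 0, beside 50.6% of all genes, and 0 called by edgeR. DESeq2 called 2 of these markers, beside 6.24% of all genes, and 4 had an unadjusted p under 0.05 in edgeR, beside 16.4% of all genes. Conventional dendritic cell markers summed to 3.62 to 5.11 and 2.13 to 3.76 CPM, lymphocyte markers to 6.41 to 7.72 and 6.86 to 9.02 CPM, and fibroblast markers to 1.80 to 3.06 and 1.87 to 1.95 CPM. All of these were small beside the macrophage sum, and their part in the IRF results was not tested. Among 8 macrophage markers *Csf1r* and *Mertk* fell and *Fcgr1*, which interferon can induce, rose from 65.8 ± 7.22 to 167 ± 13.7 CPM (SD, n = 3 each).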

How the data were processed

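Poly(A) RNA of 6 BMDM libraries was sequenced as paired-end reads. The authors quantified the reads with kallisto 0.46.1 against Ensembl cDNA of GRCm39 and deposited, per library and transcript, an estimated count (not scaled between libraries) and a TPM value. The sources differ on oxygen, L929 medium, RNA and library kits and the DESeq2 version, and do not give kallisto's strand setting. By identifier without version, 99.4% of 116873 transcripts matched the GENCODE annotation of GRCm39. The other transcripts, with 0.542% to 0.575% of counts, were left out. Counts were summed per gene and rounded, and genes with at least 10 counts in total were tested with edgeR 4.0.16 in R 4.3.3 (TMM, quasi-likelihood test, no covariate, Benjamini-Hochberg). Standard errors are the fold change over the square root of F. Levels between genes used summed TPM.

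The members and lists were chosen with earlier results of these data known. Named genes were all IRF genes, *Dnm1l*, per list up to 4 called genes in each direction with the smallest p (with none called, the 2 with the smallest p), and the 3 genes most like each called IRF gene. *Ifnar1*, *Cxcl10*, the markers, the genes at the floor and the transcripts given with values were picked after their values were seen. Some genes that the naming rule selects are not reported here. Alternatives were DESeq2 1.42.0, limma-voom (limma 3.58.1), other scalings and filters, length-scaled counts, pairing and leaving out each library. Genotypes share replicate numbers. Deviations from the group means correlated at 0.510, 0.204 and 0.298 between same-numbered libraries over 12248 genes, each over 0.1, although WT library 2 and KO library 3 correlated at 0.326. On this ground, and with no label saying so, replicate numbers were treated as pairs. No library was a copy of another (lowest chi-square per degree of freedom 9.50). Scripts were tested on simulated data. With 3 libraries against 3, an exact two-sided permutation test of 1 gene cannot go below p = 0.1.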

Additional observations from a re-analysis of the deposited data

How the results depend on the processing

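*Irf7* and *Irf9* stayed higher and called in all 14 alternatives, *Irf1* stayed higher in all 14 and called in 9, and *Irf2* stayed lower in all 14 and was called in 4. The number of the 8 genes called ran from 2 to 4. With 1 library left out, the number of all genes called, 621, ran from 181 to 904, and calls ran from 2 to 6 among sensors, adaptors and kinases, 0 to 1 among partners of IRF4 and IRF8, 1 to 3 among corepressors and inhibitors, 2 to 10 among targets of IRF1, 0 to 2 among targets of IRF4 and 0 to 2 among IRF transcripts (3 to 173 of all; 1 in the transcript fit as reported).

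With libraries of the same replicate number treated as pairs, 2212 genes were called, with 9 sensors, adaptors and kinases, 3 partners of IRF4 and IRF8, 6 corepressors and inhibitors, 12 targets of IRF1, 2 targets of IRF8 with PU.1, 3 in the list with receptors and Janus kinases, 3 targets of IRF4 and 0 IRF transcripts (0 of all transcripts). This pairing gained *Irf2* and changed no other call among the 8 genes. DESeq2 called 1155 genes, 6 sensors, adaptors and kinases, 4 corepressors and inhibitors and 10 IRF transcripts (2422 of all, against 206 in the fit as reported). With no filter beyond 1 count, 1065 genes were called, with 5 sensors, adaptors and kinases, 4 corepressors and inhibitors, 11 targets of IRF1, 1 target of IRF8 with PU.1 and 2 IRF transcripts (488 of all). Scaling by library size alone called 731 genes, 5 sensors, adaptors and kinases, 4 corepressors and inhibitors and 2 IRF transcripts (277 of all). Limma-voom called 623 genes, 1 target of IRF4 and 2 IRF transcripts (235 of all), and length-scaled counts 463 genes and 0 targets of IRF4.

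The log2 fold change of *Irf3* was negative with DESeq2 (-0.0019), limma-voom (-0.016), median-of-ratios scaling (-0.0015), library size only (-0.0083), filterByExpr (-0.0035), length-scaled counts (-0.33) and pairing (-0.0040), and ran from -0.069 to 0.15 with a library left out. *Irf8* was at -0.0074 with length-scaled counts and ran from -0.17 to 0.27 with a library left out, *Irf5* from -0.0063 to 0.14 and *Il23a* from -0.81 to 0.18. The cause of these changes was not tested. By CPM per kilobase, 3 of the 8 genes kept their WT rank. All transcript fits and their alternatives were chosen after seeing the data. Where 1 library was left out, a group rested on 2 libraries, and depth limits *Irf4*, at about 1 CPM.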
